A study of Mus musculus with 6 samples.

Results

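Ccl3, Icam1, Pecam1, Itgb5 and Ptgs2 were followed in the bone marrow of mice that carry a leukemia fusion gene. Ccl3 is a chemokine, Ptgs2 makes prostaglandins, and Icam1, Pecam1 and Itgb5 are adhesion receptors of the cell surface. They are 5 of the 1512 genes that the authors' deposited comparison table names, which lists probe sets by an unadjusted p-value on these same arrays. Every probe set there whose gene symbol was exactly one of the 5 names was taken. That gave 1 probe set per gene, 5 of the rows filled in that table, which are 4.41% of the 45101 probe sets of the array. The values of all 5 are therefore a description of these arrays and carry no test of their own. In the authors' deposited table their p-values ran from 0.0142 for Pecam1 to 0.0491 for Itgb5, the member nearest to the limit of 0.05, and the adjusted value was 0.911 for each. Rows beyond that limit are blank there, so no gene just outside could be set beside them, and further probe sets of the 5 genes were not analysed here.

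All 6 adult mice were of the strain Vav-1 Nup98/HoxD13 tg. In it the Vav-1 promoter drives a leukemia fusion gene in blood cells, and both groups carried this transgene. They differed at Gfi1, the gene of a transcriptional repressor of blood cell development. Mice labelled Gfi1-KI (3 of them) have human GFI1 knocked into the mouse gene, and in those labelled Gfi1-KD (3) the human gene is expressed at a reduced level. What these alleles are is background knowledge, and no mouse without the transgene or with its own Gfi1 was in the series. The labels state that mice were of the same age. Whole marrow, after lysis of red cells, was hybridised to Affymetrix mouse genome arrays, 1 for each numbered mouse. In such a mixture, more cells of a type and more RNA per cell cannot be told apart.

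Median MAS5 signal, the scaled linear signal of a probe set, lay between 117.0 and 148.1 on the 6 arrays. Gfi1-KI replicate 2 had the lowest median correlation with the other arrays (Pearson r across probe sets of 0.905, against 0.919 to 0.932), so values without it are given as well. limma called 0 of 22519 tested probe sets between the genotypes (0%, Benjamini-Hochberg adjusted p under 0.05), with 1217 (5.40%) at an unadjusted p under 0.05. Ccl3, Icam1, Pecam1 and Itgb5 were tested and each had an adjusted p of 0.865. Ptgs2 lay below the level filter, a mean log2 MAS5 signal of 6.95, and was not tested.

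Chemokines are small secreted proteins that draw leukocytes along a gradient by binding receptors on their surface. Leukocytes then stop on vessel walls and leave the blood through adhesion receptors, among them the ICAM and PECAM proteins and the integrins. Integrins are pairs of an alpha and a beta chain that bind matrix or other cells. NF-kB, a family of transcription factors, is known to drive many genes of this response, Ccl3, Icam1 and Ptgs2 among them.

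Ccl3, Icam1, Pecam1 and Itgb5 had higher signals in Gfi1-KD than in Gfi1-KI on every array, about 4-fold for Ccl3 and Itgb5 and 2-fold for Icam1 and Pecam1. Ptgs2 gave almost no signal in either group. In 4 of the 5 the MAS5 signals of the groups did not overlap, as was the case with Gfi1-KD higher in 6.77% of all tested probe sets. The members were taken from a table selected on this contrast, so nothing is read from that count. Over all 5, the median log2 MAS5 difference was 1.06 (Gfi1-KD minus Gfi1-KI), beside 0.02 over all tested probe sets, which do not include Ptgs2. The same selection bears on this median, so nothing is read from it either.

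**Figure D1:**
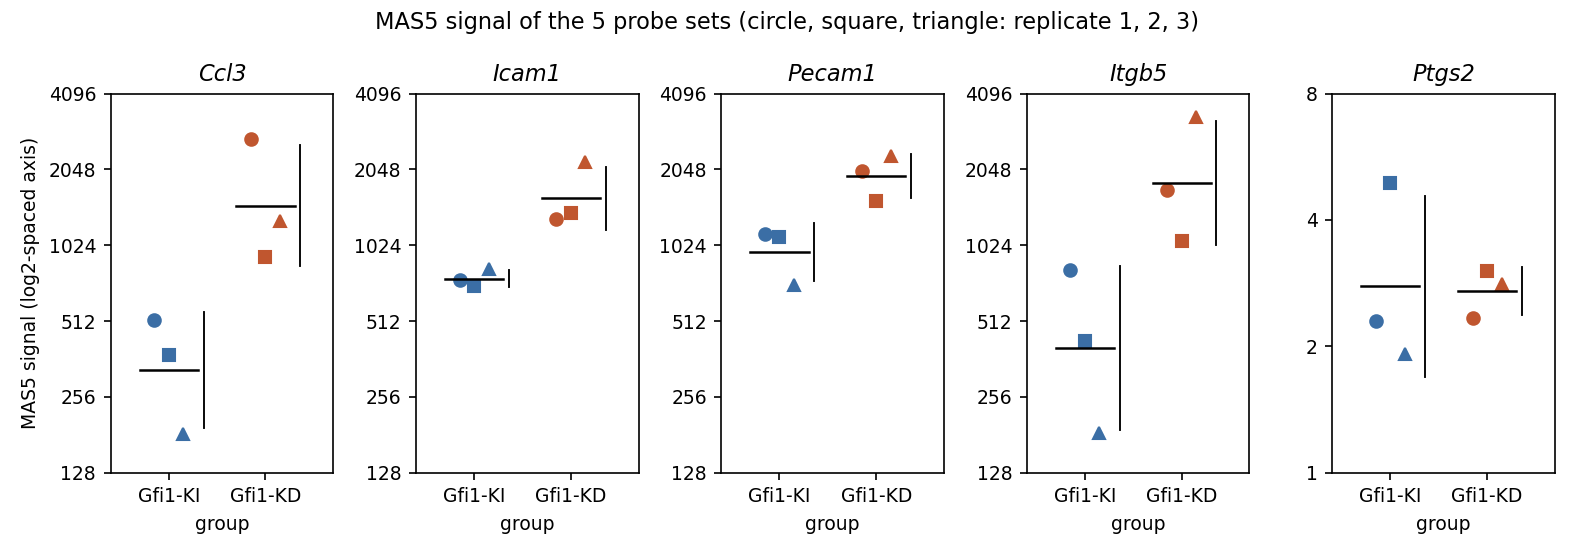
MAS5 signal of each probe set on a log2-spaced axis, by group, with replicates 1, 2 and 3 as circle, square and triangle. Horizontal lines are geometric means and vertical lines 1 SD of the log2 signals (n = 3 each). Ptgs2 has an axis of its own, and the other 4 share a range. Only for Ptgs2 do the groups overlap.

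Ccl3 encodes a CC chemokine, also called MIP-1 alpha, that is made by macrophages and other leukocytes and draws leukocytes to sites of inflammation. It lies on chromosome 11 at 83647843 to 83649378 of build GRCm38.p6, on the minus strand. Its MAS5 signals were 516, 375 and 182 on the Gfi1-KI arrays, replicates 1 to 3, and 2698, 921 and 1274 on the Gfi1-KD arrays. The lowest Gfi1-KD array was thus above the highest Gfi1-KI array, with Gfi1-KD replicate 1 highest of all and Gfi1-KI replicate 3 lowest. Within each group the signals still varied, 2.93-fold in Gfi1-KD and 2.83-fold in Gfi1-KI. The geometric mean was 4.48-fold higher in Gfi1-KD, a log2 difference of 2.16 ± 0.52 (SE of limma). The log2 RMA signals, a second summary of the same arrays, were 7.73, 7.64 and 6.16 in Gfi1-KI and 10.08, 8.64 and 8.97 in Gfi1-KD, a 4.15-fold difference. Ranks of the arrays were alike in both summaries. Setting group medians beside each other gave less, a log2 difference of 1.77 in MAS5 and 1.33 in RMA signals.

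The promoter of Ccl3 is shown because 3 of the higher members can be compared at this level, beside the known NF-kB and Gfi1 sequences. RefSeq promoters of build GRCm38.p6, 250 bases before to 50 after the start, were found for 4 of the 5 genes, without Pecam1. They were searched on both strands for GGNNNTTCC, a form of the NF-kB site, and for AATC, the core of the Gfi1 site, with capitals marking matches. Of all 32851 promoters of that table, 18.5% hold the first and 73.1% the second. A longer Gfi1 form, AAATCAC, is in 3.20% of them and in none of these 4. Matches describe letters and show no binding. The window of Ccl3, chr11:83649329-83649628 on the minus strand, has 1 AATC on the opposite strand, 41 bases before the start, and no GGNNNTTCC.
Ccl3: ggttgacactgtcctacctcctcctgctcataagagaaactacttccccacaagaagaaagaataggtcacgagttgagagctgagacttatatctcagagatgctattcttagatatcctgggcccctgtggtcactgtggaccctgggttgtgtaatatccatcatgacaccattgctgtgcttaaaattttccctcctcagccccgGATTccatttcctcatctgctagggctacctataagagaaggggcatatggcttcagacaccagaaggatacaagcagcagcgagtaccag

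Among 22 CC chemokine genes, 2 were named in the authors' deposited table. Beside Ccl3 this was Ccl25, a chemokine of thymus and gut, with a log2 RMA difference of -0.28. None of 18 genes of the other chemokine classes was named. Of 22 chemokine receptor genes considered 3 were named, all with higher RMA signals. They were Cx3cr1, the fractalkine receptor (2.29), Ccr2, which guides monocytes out of the marrow (0.87), and Cxcr4, which holds blood cells in it (0.26). Among all other named genes 858 of 1507 (56.9%) were higher.

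Icam1 encodes intercellular adhesion molecule 1, an immunoglobulin-like receptor that binds the leukocyte integrins LFA-1 and Mac-1 and is known to be induced by inflammatory cytokines. It lies on chromosome 9 at 21015940 to 21028814, on the plus strand. The MAS5 signals were 743, 707 and 821 in Gfi1-KI and 1299, 1369 and 2181 in Gfi1-KD. The Gfi1-KI arrays lay close together (1.16-fold from lowest to highest), and Gfi1-KD replicate 3 stood above the other Gfi1-KD arrays. The geometric mean was 2.08-fold higher in Gfi1-KD, a log2 difference of 1.06 ± 0.26. In RMA signals the difference was 0.96, from 8.08, 7.92 and 8.24 in Gfi1-KI to 8.80, 8.86 and 9.46 in Gfi1-KD. Without Gfi1-KD replicate 3 it was 0.82 in MAS5 and 0.75 in RMA signals.

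The promoter of Icam1 was the only one of the 4 with GGNNNTTCC, at 2 places, and it had no AATC. At 153 bases before the start the strand of the gene reads GGAAATTCC, and the reverse complement of these letters also has the form of the motif. A further match lies on the opposite strand at 84 bases before the start, and the window shows the letters of the gene's own strand there. The window is chr9:21015690-21015989, plus strand, with the matches in capitals.
Icam1: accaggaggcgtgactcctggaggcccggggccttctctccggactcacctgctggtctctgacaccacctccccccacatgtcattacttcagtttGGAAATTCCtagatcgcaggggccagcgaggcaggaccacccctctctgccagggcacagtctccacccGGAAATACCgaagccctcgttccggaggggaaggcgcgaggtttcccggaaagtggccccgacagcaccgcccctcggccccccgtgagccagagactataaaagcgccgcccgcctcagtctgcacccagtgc

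Pecam1, also called CD31, is an adhesion receptor of endothelial cells, platelets and leukocytes that binds its own kind across cell borders. It lies on chromosome 11 at 106654213 to 106715281, on the minus strand. Its MAS5 signals were 1134, 1105 and 709 in Gfi1-KI and 2018, 1541 and 2304 in Gfi1-KD. Gfi1-KI replicate 3 was the lowest array and Gfi1-KD replicate 3 the highest. Signals spread 1.60-fold within Gfi1-KI and less within Gfi1-KD. The geometric mean was 2.01-fold higher in Gfi1-KD, a log2 difference of 1.0 ± 0.27. In RMA signals it was 0.91, with 9.42, 9.22 and 8.85 in Gfi1-KI and 10.11, 9.81 and 10.29 in Gfi1-KD. Of 9 endothelial marker genes 1 was named, Tie1, a receptor of vessel cells. Its log2 RMA difference was -0.24, and its MAS5 signals, all under the level filter, were 5.01, 4.47 and 74.2 in Gfi1-KI and 28.1, 9.54 and 49.7 in Gfi1-KD, where the groups overlapped. None of 7 megakaryocyte and platelet genes and none of 7 stromal genes was named, so the part of these cells in the Pecam1 signal was not tested. Jam2, a junction adhesion molecule and the only other one named among 19 genes of the immunoglobulin superfamily and junction list, had a log2 RMA difference of 0.20. Its MAS5 signals, all under the level filter, were 8.80, 23.3 and 39.4 in Gfi1-KI and 33.9, 29.6 and 10.2 in Gfi1-KD. Here too the groups overlapped. No gene of the selectin list, 7 in all, was named.

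Itgb5 encodes the integrin beta 5 chain, which pairs with the alpha v chain in a receptor for vitronectin and takes part in the uptake of dying cells by phagocytes. It lies on chromosome 16 at 33829665 to 33949338, on the plus strand. The MAS5 signals were 814, 428 and 184 in Gfi1-KI and 1696, 1068 and 3293 in Gfi1-KD. The Gfi1-KI signals spread 4.42-fold and those of Gfi1-KD 3.08-fold, the widest spread in each group among the 5 genes. The gap from Gfi1-KI replicate 1 to Gfi1-KD replicate 2 was 0.39 on the log2 scale, the narrowest among the 4 higher genes. The geometric mean was 4.53-fold higher in Gfi1-KD, a log2 difference of 2.18 ± 0.62. In RMA signals the difference was 2.27 (4.84-fold), with 8.78, 7.50 and 6.61 in Gfi1-KI and 9.74, 9.11 and 10.87 in Gfi1-KD. Leaving out Gfi1-KI replicate 3, the lowest array, gave 1.62 in MAS5 signals, and leaving out Gfi1-KI replicate 1 gave 2.69.

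The promoter of Itgb5 had AATC on both strands, at 227 bases before the start on its own strand and at 245 on the opposite one, and no GGNNNTTCC. It is chr16:33829415-33829714 on the plus strand, with the matches in capitals.
Itgb5: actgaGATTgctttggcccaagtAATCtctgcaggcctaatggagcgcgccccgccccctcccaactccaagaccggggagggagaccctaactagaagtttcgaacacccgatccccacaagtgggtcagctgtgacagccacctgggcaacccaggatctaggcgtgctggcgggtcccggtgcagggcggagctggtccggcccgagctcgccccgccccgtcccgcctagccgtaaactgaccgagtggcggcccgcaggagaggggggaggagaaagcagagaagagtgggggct

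Of 10 integrin beta genes 3 were named. Beside Itgb5 these were Itgb7, a chain of homing receptors of lymphocytes, with a log2 RMA difference of 0.69, and Itgb2l, a relative of the leukocyte beta 2 chain, with -2.85. Itgb2l was lowest on Gfi1-KD replicate 3 (7.14) and highest on Gfi1-KI replicate 3 (11.74), the arrays on which Itgb5 was highest and lowest. No integrin alpha gene was named among 18, so the partner chains were not analysed here. Of 17 genes for proteins of integrin adhesion sites inside the cell 4 were named. Tln2, a talin that links integrins to actin, had a log2 RMA difference of 1.97, Ptk2b, a kinase at adhesion sites, 0.31, and Fermt2, a kindlin that aids integrin activation, 0.07. Actn1, an actin cross-linker, had -2.14. Fermt2 lay below the level filter, with a mean log2 MAS5 signal of 5.34. The beta chains and their partners thus stood on both sides of 0.

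**Figure D2:**
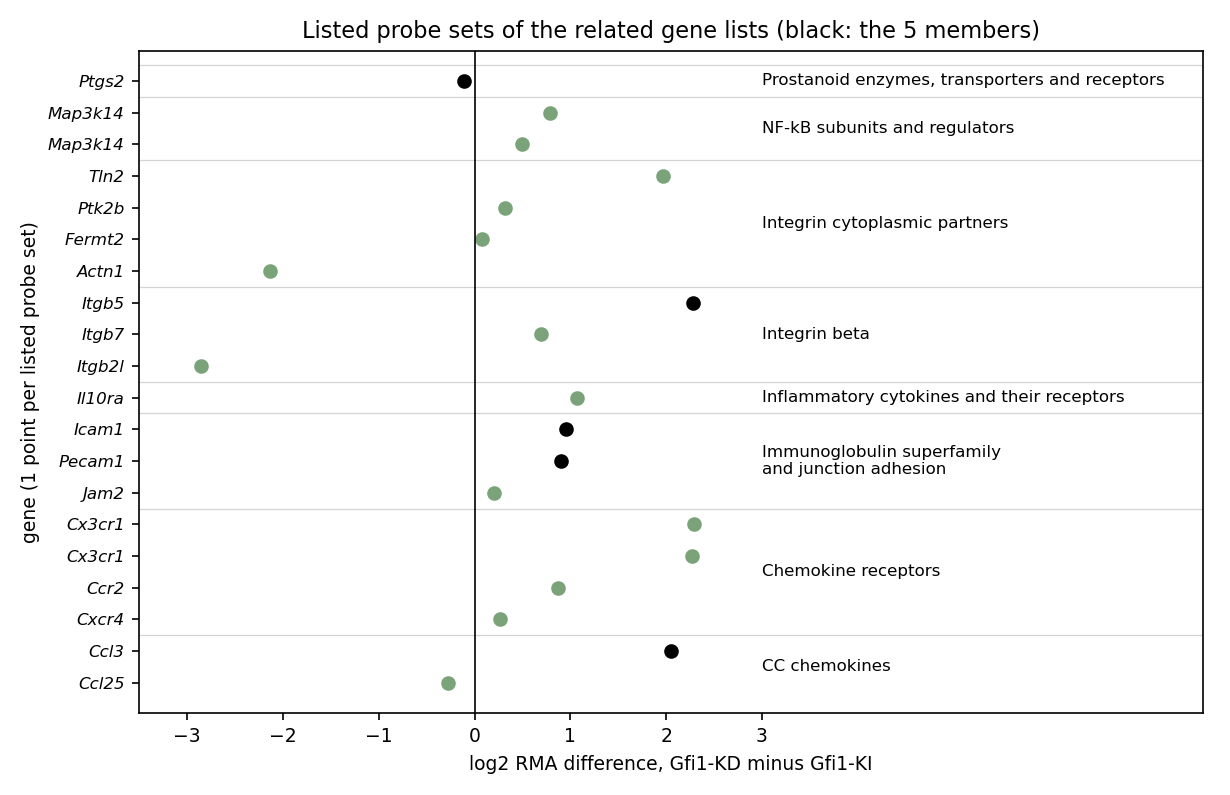
log2 RMA difference, Gfi1-KD minus Gfi1-KI, for each listed probe set of the related gene lists, grouped by list, with the 5 genes of interest in black. Chemokine receptors lie at or above 0.26, while the integrin beta chains run from -2.85 to 2.27.

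Ptgs2 encodes the inducible cyclooxygenase, also called COX-2, which makes the precursor of prostaglandins and is low or absent in many resting cells. It lies on chromosome 1 at 150100031 to 150108234, on the plus strand. Its MAS5 signals were 2.29, 4.89 and 1.92 in Gfi1-KI and 2.34, 3.03 and 2.81 in Gfi1-KD, far under the level filter, a signal of 124. The groups overlapped, with the highest and the lowest array both in Gfi1-KI. The log2 MAS5 difference was -0.04 ± 0.71 (SE of limma fitted without the filter), which shows no direction. Without Gfi1-KI replicate 2 it was 0.37. Its listing as lower comes from RMA signals of 3.87, 3.99 and 3.93 in Gfi1-KI against 3.82, 3.83 and 3.81 in Gfi1-KD. These do not overlap, but they differ by only -0.11 on the log2 scale (1.08-fold), and all 6 lie within 0.17. The SD within Gfi1-KD was 0.0065, smaller than in all but 23 of the filled rows, where the median was 0.0798. No other gene of the prostanoid pathway was named among 22. The promoter of Ptgs2 had none of the 3 motifs in this window.

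**Figure D3:**
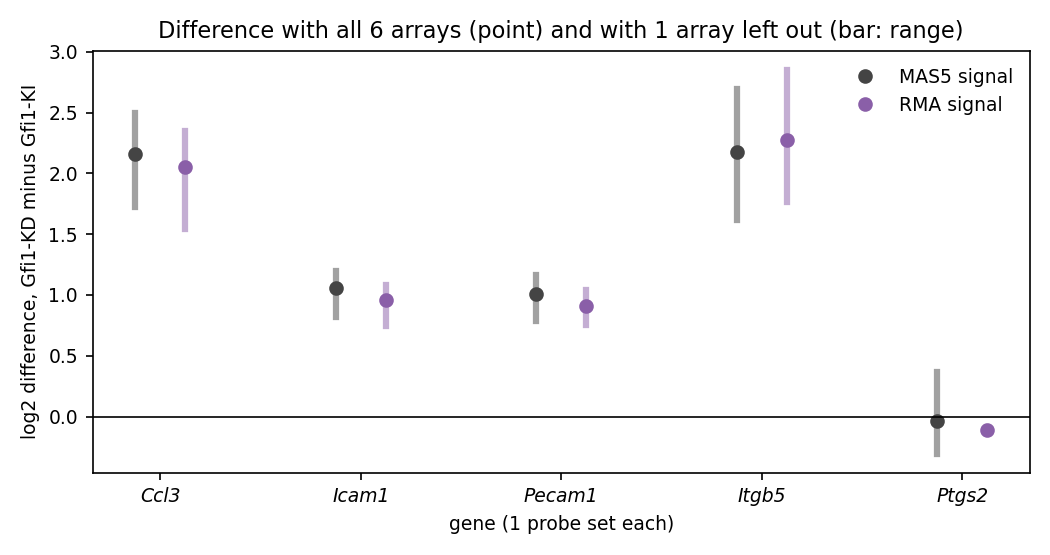
log2 difference, Gfi1-KD minus Gfi1-KI, for each gene in MAS5 and RMA signals. Points use all 6 arrays and bars span the 6 values with 1 array left out. Bars of Ccl3 and Itgb5 are widest, and that of Ptgs2 in MAS5 signals crosses 0, from -0.31 to 0.37.

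Without Gfi1-KI replicate 2, the log2 MAS5 differences were 2.26 for Ccl3, 1.01 for Icam1, 1.10 for Pecam1 and 2.23 for Itgb5. Among the Gfi1-KI arrays, Ccl3, Pecam1 and Itgb5 had the same order, with replicate 1 highest and replicate 3 lowest. Icam1 was highest on replicate 3 there. Among the Gfi1-KD arrays, Pecam1 and Itgb5 were highest on replicate 3 and lowest on replicate 2, Icam1 was lowest on replicate 1, and Ccl3 was highest on replicate 1. The 4 higher genes thus did not vary as 1 block within the groups. Likeness was measured as the root mean square difference of log2 RMA signals over the 6 arrays, each gene centred on its mean. Among pairs of the 4, it was smallest between Icam1 and Pecam1 (0.28) and largest between Icam1 and Itgb5 (1.0).

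Over the 1511 other named genes, the profile nearest to Itgb5 was that of Cx3cr1 (0.36, where the median gene had 1.34), followed by Ptpro, a receptor tyrosine phosphatase (0.40). Nearest to Ccl3 were Ptpro (0.47, median 1.17) and F5, coagulation factor V (0.49). Icam1 was nearest to Slc22a5, a carnitine transporter (0.13, median 0.48), and to Rassf4 (0.13). Pecam1 was nearest to LOC432459, which has no described product in the table (0.09, median 0.45), and Errfi1, an inhibitor of ERBB receptors (0.10). For Ptgs2 the nearest were Pianp (0.011, median 0.17) and 4930524B15Rik (0.012), with log2 differences of -0.11 each. These distances are small for genes with small differences, and all genes compared were listed by p on the same contrast.

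**Figure D4:**
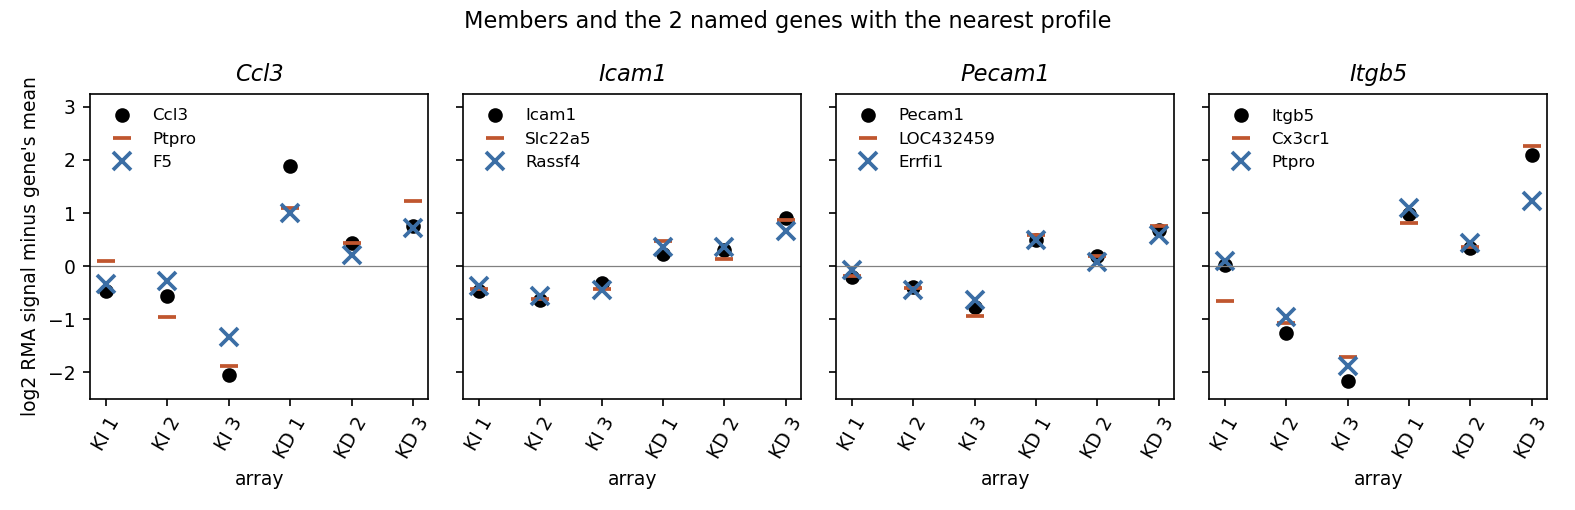
log2 RMA signal of Ccl3, Icam1, Pecam1 and Itgb5 on each of the 6 arrays, minus the mean of the gene, with the 2 nearest named genes. Icam1 is highest on Gfi1-KI replicate 3 within its group, where the other 3 genes are lowest.

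The NF-kB and the cytokine lists had 1 named gene each. Of 20 NF-kB subunits and regulators, the only one was Map3k14, the kinase NIK of the alternative NF-kB pathway. Its 2 probe sets had log2 RMA differences of 0.49 and 0.79. Of 21 inflammatory cytokine and receptor genes, the only one was Il10ra, a chain of the receptor for the anti-inflammatory cytokine IL-10. Its difference was 1.07, with 8.87, 8.53 and 7.97 in Gfi1-KI and 9.79, 9.05 and 9.73 in Gfi1-KD. Over the 11 related lists together, 13 of 191 genes beside the 5 were named, 10 higher (76.9%) and 3 lower. Over all 1507 other named genes, 56.9% were higher. The median log2 RMA difference was 0.31 over the 13, against 0.15 over the 1507. All were listed by p on this contrast, so nothing is read from these shares. Jam2 and Fermt2, both among the higher, lay below the level filter and were not tested by limma, which called no probe set at all.

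Of 10 monocyte and macrophage markers 5 were named, Csf1r, Adgre1, Cx3cr1, Ccr2 and Ctss. All had higher RMA signals in Gfi1-KD, as did 56.9% of all named genes other than the members. These markers were listed by p on this same contrast, so nothing is read from their direction or from a gap between the groups. The summed MAS5 signal of the 5 markers ranged from 55436 to 80403 on the Gfi1-KD arrays and from 26676 to 41956 on those of Gfi1-KI. None was at 0 on any array. Csf1r (15918) and Ctss (20617) held most of the sum of 41956 on Gfi1-KI replicate 1. Within Gfi1-KD the sum was highest on replicate 3 and lowest on replicate 2, as were Pecam1 and Itgb5. Within Gfi1-KI it was highest on replicate 1 and lowest on replicate 2. Of 10 neutrophil markers 1 was named, Ltf, a granule protein, with MAS5 signals from 28.9 to 2797 on the Gfi1-KD arrays and from 13788 to 26674 on those of Gfi1-KI. Pax5, the only named one of 5 B cell markers, had 90.4 to 117 and 23.2 to 130, with a mean log2 signal of 6.02, below the level filter. No erythroid, T and NK cell, or mast cell marker was named. The part of the cell mixture in the values of Ccl3, Icam1, Pecam1 and Itgb5 was not tested.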

How the data were processed

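Gene expression was measured on 6 arrays, 3 per genotype, from 200 ng of total RNA each, per the labels. Groups follow the labelled genotype. Replicates were numbered in accession order, so the numbers pair no arrays. The p-values set the difference between group means against the spread between arrays within the groups.

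The deposited value table gives each probe set an intensity per array, a linear MAS5 signal per the submitters' processing notes (version not given). The authors' comparison table holds log2 RMA signals, an analysis of variance p-value of kd against wt, its step-up p-value, the ratio and a signed fold score, per the file headers. The group wt was read as Gfi1-KI. Its software and any further settings are not given in the sources used here. Of its 45101 rows 43112 are blank, and the filled ones have p-values up to 0.05. The deposited ratio was recomputed from the RMA signals within 0.0045%.

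Only filled rows pair probe sets with genes: 1711 rows have 1 symbol. Of these rows, 1574 have an Entrez identifier found in the reference table, through which the symbol changed in 108 rows, and together they hold 1512 genes, called named in the report. A gene with several probe sets was represented by the one with the highest mean RMA signal.

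MAS5 signals under 1 were set to 1 (455 values) and log2 was taken. limma 3.58.1 in R 4.3.3 (lmFit, eBayes with a trend, two-sided, Benjamini-Hochberg) was run on the 22519 probe sets, controls left out, whose mean log2 signal reached the median of 6.95. It was also run on simulated data with independent normal noise for each probe set, and nothing is read from that run here. With 3 arrays against 3 an exact permutation test cannot go below 0.1. Folds are ratios of geometric means. Alternatives were other filters, quantile and median scaling, added constants of 16 and 64, group medians, RMA signals, other limma settings, an analysis of variance, and leaving out each array. The genes described with values are the 5 members, the list genes with a filled row, except a gene that is not reported here, and the 2 nearest profiles per member. The members and lists were chosen with earlier results of these data known. Other steps used matplotlib 3.10.9, scipy 1.17.1, pandas 2.3.3 and numpy 2.4.6 in Python 3.11.15.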

Additional observations from a re-analysis of the deposited data

How the results depend on the processing

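limma called 0 probe sets under 14 of the 15 alternatives, with 536 to 2120 at an unadjusted p under 0.05 when 1 array was left out. The analysis of variance on MAS5 signals called 1. Of 12 alternatives for each log2 MAS5 difference, all stayed within 1 SD of the value given and above 0 for Ccl3 (1.72 to 2.50), Icam1 (0.82 to 1.19), Itgb5 (1.62 to 2.69) and Pecam1 (0.78 to 1.17), which is no sign of stability, since the choice of genes fixed the direction. With 1 array left out, RMA differences ran from 1.55 to 2.35 for Ccl3, 0.75 to 1.08 for Icam1, 1.76 to 2.85 for Itgb5, 0.75 to 1.04 for Pecam1 and -0.14 to -0.08 for Ptgs2. The log2 MAS5 difference of Ptgs2 ran from -0.31 to 0.37 with 1 array left out. It turned from -0.04 to 0.37 without Gfi1-KI replicate 2, to 0.07 without Gfi1-KD replicate 1 and to 0.29 with group medians; the cause was not tested. The 10 higher genes of the related lists numbered 10 without each array. Ptgs2 lay far under the level filter, and the values of the other genes rest on 3 arrays per group. No paired analysis was possible because the labels give no replicate numbers.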

Other observations

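Gene Ontology terms printed in the authors' deposited table widen the view beyond the lists, though these terms were picked after values had been seen and the genes were listed by p on the same arrays. Of 40 named genes annotated with cell adhesion, 25 (62.5%) had higher RMA signals in Gfi1-KD, Icam1, Itgb5 and Pecam1 among them. Of 21 annotated with inflammatory response 14 (66.7%) were higher, Ccl3 among them, and Ptgs2 was among the lower. The share was 56.9% of all named genes other than the 5. The terms thus count members that this share leaves out, and nothing is read from the comparison. Of 9 with chemotaxis, 8 were higher, Ccl3 and the receptors Ccr2, Cx3cr1 and Cxcr4 among them, and Ccl25 was the only lower one. Of 9 with integrin-mediated signaling 8 were higher, Itgb5 and Itgb7 among them, and Itgb2l was the only lower one. Of 6 with cell-matrix adhesion, 3 were higher and 3 lower. Since limma called no probe set at all, none of these genes was called, and direction was not tested.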
